A study of Mus musculus with 6 samples.

Results

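Fibroblast growth factors (FGFs) are secreted proteins that act on receptor tyrosine kinases of the FGFR family. The genes described here are 6 FGF ligands (Fgf1, Fgf2, Fgf7, Fgf9, Fgf10 and Fgf18) and 4 receptors (Fgfr1, Fgfr2, Fgfr3 and Fgfr4). They were listed by name, with earlier results of these data known. Every probe set that the array annotation pairs with one of them alone was used. These are 10 of the 18193 genes measured and 23 of the 45037 probe sets. The study compared 3 samples of juxtaglomerular (JG) cells with 3 samples of renal mesenchymal stromal cells (MSC). JG cells secrete renin from the wall of the kidney's afferent arteriole, and here they were flow sorted as YFP-positive cells. The MSC were flow sorted by the surface antigen CD44 and then grown to confluence in medium with serum before RNA was taken. Both groups came from adult C57BL6 mice of the Ren1c YFP genotype, so both carry the reporter. The labels do not describe the reporter construct further, give the same growth medium for JG cells as for MSC, and do not say whether each sample is an animal or culture of its own. The p-values therefore measure only the spread between these samples, which may be technical.

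Most FGF ligands are held close to the cell that makes them by heparan sulphate, a sulphated sugar chain on cell surface and matrix proteins, which is also part of the complex between ligand and receptor. Receptors 1 to 3 are spliced into IIIb and IIIc forms that differ in ligand choice. Fgf7 and Fgf10 are typical stromal ligands of the IIIb form of Fgfr2 on epithelium, whereas Fgf1 can bind all the receptors. In the developing kidney, FGF signals act on both the branching ureteric bud and the nephron progenitors, and in the adult kidney the circulating hormone Fgf23 acts on tubules through receptors that need the co-receptor Klotho.

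Each array gave 1 linear intensity per probe set, with array medians from 27.3 to 36.5. Across genes, the arrays correlated at a mean of 0.847 to 0.886 with the others of the JG group and 0.972 to 0.974 with the others of the MSC group, and JG sample 1 stood closest to MSC (mean r of 0.810 with the MSC arrays, against 0.693 and 0.774 for JG samples 2 and 3). Genes had a median log2 standard deviation of 0.543 within JG and 0.260 within MSC. Cd44, the antigen of the MSC sort, had intensities of 153, 119 and 144 in the JG samples, against 1005, 1035 and 881 in the MSC samples. Ren1 was not analysed here.

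The JG samples also held strong signal of other kidney cells. The summed intensity of 14 proximal tubule markers ran from 37219 to 47181 in JG and from 447 to 743 in MSC. For 6 distal tubule markers it was 12722, 2830 and 8035 in JG samples 1 to 3, against 83.6 to 98.5 in MSC, and 12 collecting duct markers gave 3481 to 6340 in JG and 147 to 172 in MSC. Higher in JG were 14 of 14 proximal tubule, 6 of 7 thick ascending limb, 6 of 6 distal tubule and 8 of 12 collecting duct markers, and none was higher in MSC. The thick ascending limb sums were 8869 to 12590.2 in JG and 55.6 to 74.2 in MSC. The sum of 12 endothelial markers was 1286 to 1990 in JG and 172 to 290.2 in MSC, and that of 11 leukocyte markers was 1643 to 4048 in JG and 114 to 494 in MSC, with 6 and 4 markers called higher in JG and none in MSC. Among them, the leukocyte genes Laptm5 and Csf1r averaged 926 and 893 in JG and 25.95 and 79.1 in MSC. Ptprc averaged 24.8 in JG and 4.31 in MSC, and these genes were all called higher in JG. Csf1r had 343, 378 and 1958 in JG samples 1 to 3. Of the 11 leukocyte markers, 7 were not called. C1qa, Cd68, Adgre1, Itgam, Cd79b and Tyrobp overlapped, and Itgam and Cd3e lay under 16 in both groups. Of those not called, Cd68 alone averaged lower in JG, with 18.9 against 24.3 in MSC. The endothelial gene Tek averaged 381 in JG and 3.93 in MSC and was called higher in JG, and Pecam1, which was not called, averaged 15.7 in JG and 3.01 in MSC. Ehd3, the brightest endothelial marker in JG, averaged 452 in JG and 70.7 in MSC, with overlap, and was not called. The sums of 12 fibroblast markers overlapped between the groups, with 44237, 16081 and 24567 in JG and 31552 to 39094 in MSC. Of the fibroblast markers 4 were higher in JG and 2 in MSC. The sum of 8 renin cell markers was 4223 to 4994 in JG and 652 to 820 in MSC, with 6 higher in JG and 1 in MSC. In contrast, 12 smooth muscle and pericyte markers summed to 3683 to 4997 in JG and 21340 to 29250 in MSC, with 2 higher in JG and 6 in MSC. Rgs5, the brightest renin cell marker in JG (1105, 2343 and 2120), stands in both of these lists, so the 2 sums are not independent. The renin cell sum holds neither Ren1 nor Akr1b7, and its marker Gja5 overlapped and was not called. Podocyte and parietal cell markers summed to 690.2 to 2346 in JG and 3351 to 4992 in MSC, with 3 of 6 higher in MSC (Synpo, Wt1 and Cldn1) and none in JG. The other podocyte markers, Nphs1, Podxl and Plce1, went the other way without a call. They averaged 22.9, 342 and 282 in JG and 3.59, 88.7 and 67.5 in MSC. The sum of 8 MSC surface markers was 3282 to 4457 in JG and 5471 to 6969 in MSC, with 2 higher in JG and 3 in MSC. What part these cells had in the FGF values was not tested, and in bulk RNA of sorted cells fewer cells of a type and less RNA per cell cannot be told apart. The MSC were cultured, and the labels do not settle whether the JG cells were. Cell type, the other cells of a sample and any difference in culture therefore cannot be told apart, for the FGF genes or the lists below.

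**Figure D1:**
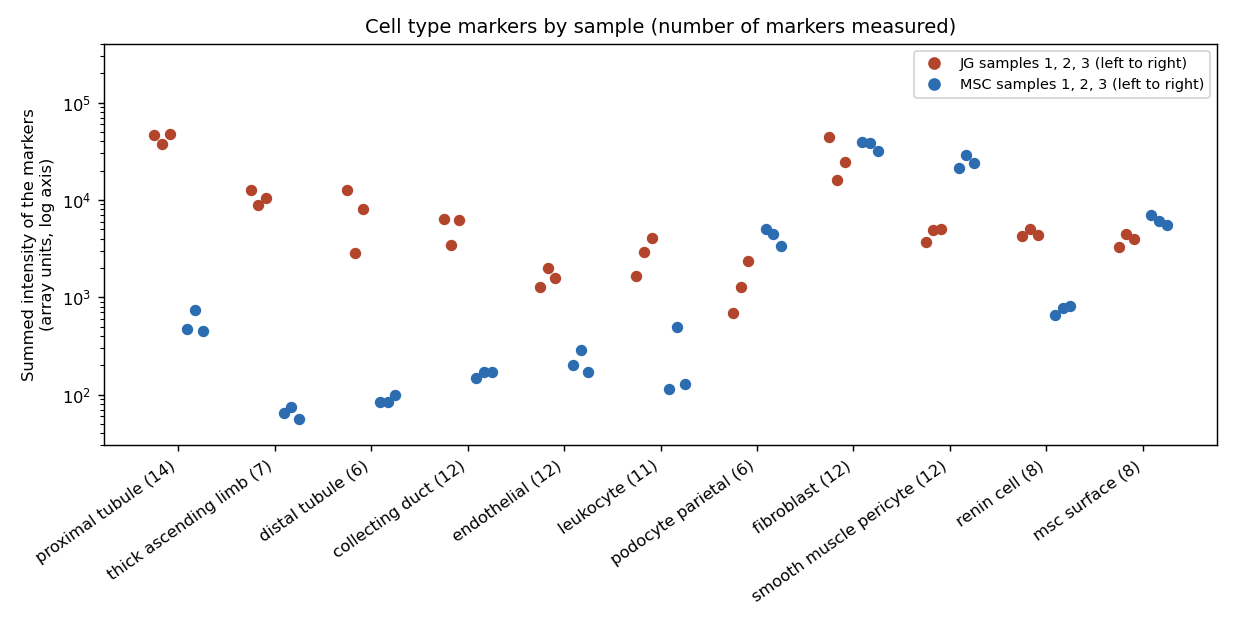
Summed intensity (array units, log axis) of the measured markers of 11 cell types or compartments, 1 point per sample, JG samples in red and MSC samples in blue; the number in brackets is the number of markers summed. The nephron segment sums of every JG sample lie far above those of every MSC sample, whereas the fibroblast sums overlap.

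The FGF ligands and receptors did not move as 1 group between the JG and MSC samples. Fgf1, Fgf10 and Fgfr4 were higher in JG and Fgfr2 was higher in MSC, and the other 6 genes were not called. Of the called genes, Fgf1 had the largest log2 difference with the pseudocount of 16, with a mean intensity of 559 ± 236 in JG and 24.5 ± 11.2 in MSC (SD, n = 3 per group). These 4 of 10 calls stand beside 15.3% of all genes called in either direction (7.7% higher in JG and 7.63% higher in MSC). The members were chosen with earlier results of these data known, so these shares are no test of the members. The groups did not overlap for 5 of the 10 genes, 4 with JG higher and 1 with MSC higher, and for 38.7% of all genes (20.2% with JG higher and 18.5% with MSC higher). Each gene was represented by its brightest probe set, values were taken as log2 of the intensity plus 16, and a gene was called at a Benjamini-Hochberg adjusted p under 0.05 over all genes in limma. Differences below are JG minus MSC on that log2 scale, with the standard error. Where 1 group lies wholly under 16, the fitted size depends on the added 16 and is no measured fold change. Array annotation does not separate the IIIb and IIIc forms, and the intensity of a probe set also depends on its probes, so brightness serves only to choose probe sets and genes and gives no order of RNA levels.

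**Figure D2:**
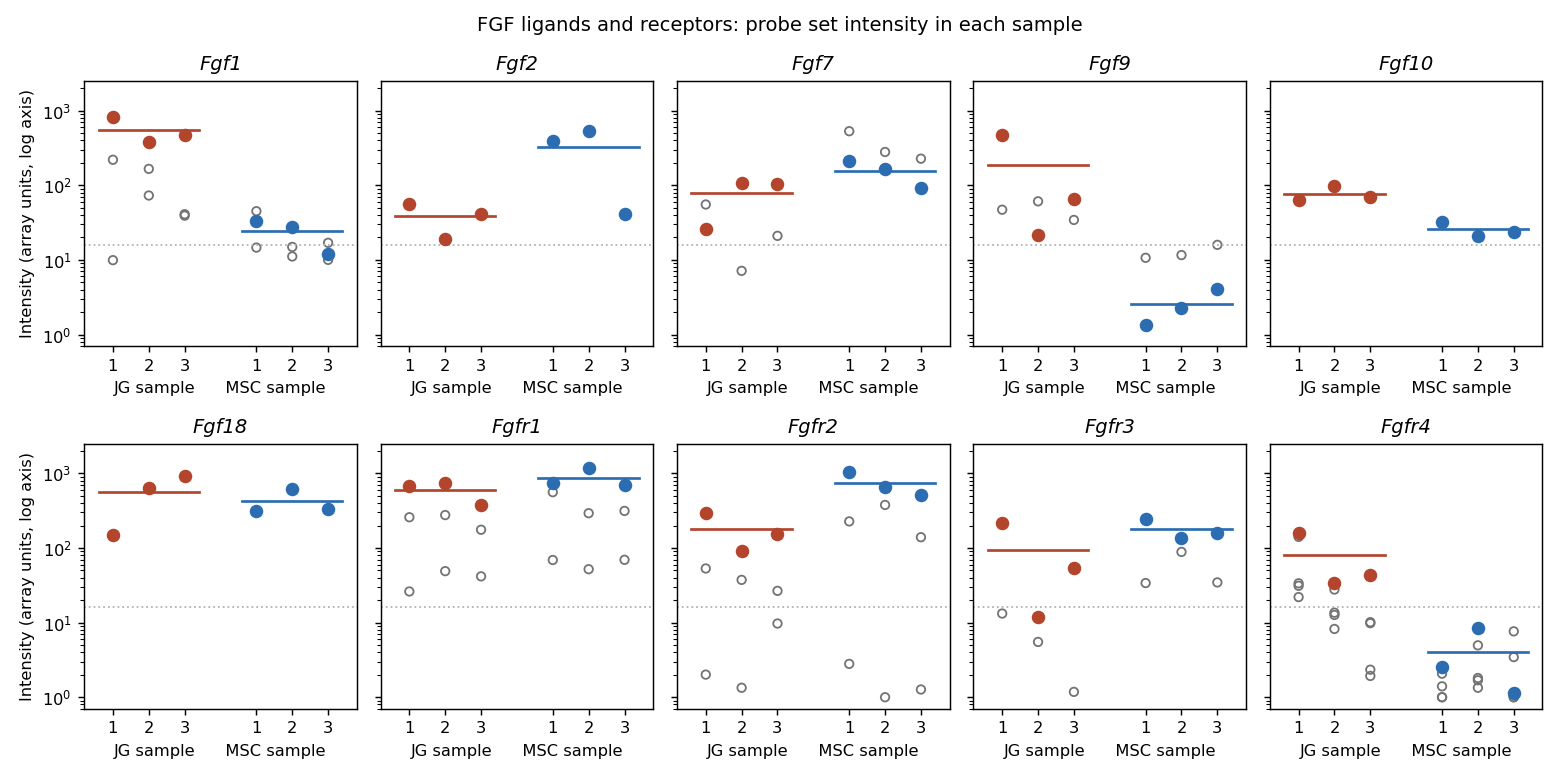
Intensity (array units, log axis) of each probe set of the 10 genes in JG samples 1 to 3 (red, left) and MSC samples 1 to 3 (blue, right). Filled points are the brightest probe set of the gene with its group means as lines, open points are its other probe sets, and the dotted line marks 16; Fgf1 and Fgfr4 separate upward in JG and Fgfr2 downward, and Fgf18 overlaps.

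Among the ligands, Fgf1, the ligand that binds all FGF receptors and that is made without a classical secretion signal, was measured at 826, 380.5 and 469 in the JG samples, against 33.5, 27.96 and 11.9 in the MSC samples. The groups lay far apart, and the log2 difference was 3.79 ± 0.38 (limma adjusted p = 0.00169). This call held with any 1 sample left out, with differences from 3.48 to 4.02 and adjusted p-values up to 0.0132. A second probe set gave 220.1, 166 and 41.0 in JG and 14.6, 14.9 and 10.0 in MSC, again without overlap, and missed the threshold over all probe sets (2.21 ± 0.54, limma adjusted p = 0.0568). The remaining one overlapped, with 9.93, 73.0 and 39.2 in JG and 45.0, 11.1 and 16.96 in MSC (0.41 ± 0.54, limma adjusted p = 0.670). JG sample 1 had the highest Fgf1 and JG sample 2 the lowest by the brightest probe set. This is also the order of the distal tubule, thick ascending limb, collecting duct and fibroblast marker sums. The remaining marker sums ran in other orders.

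The 3 named genes whose centred log2 profile over the 6 samples lay nearest to that of Fgf1 were Cd55, Gas2 and Ak4, at root mean square distances of 0.160, 0.196 and 0.228. Cd55, which encodes a cell surface inhibitor of complement, had 2066, 762 and 1035 in JG and 101, 99.5 and 59.6 in MSC. Gas2, a growth arrest gene of the actin cytoskeleton, and Ak4, a mitochondrial adenylate kinase, had JG means of 837 and 3116 and MSC means of 56.7 and 195.

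Of Fgf10 and Fgf7, ligands of the same subfamily, Fgf10 was higher in JG and 1 of 2 Fgf7 probe sets was higher in MSC. Fgf10, read by 1 probe set, was at 63.7, 98.1 and 69.3 in JG and 32.3, 21.1 and 23.7 in MSC. All JG values exceeded all MSC values and the difference was 1.15 ± 0.25 (limma adjusted p = 0.0306). The call of Fgf10 was lost without JG sample 3 (adjusted p = 0.0639), MSC sample 1 (0.0787), MSC sample 2 (0.126) or MSC sample 3 (0.126), while its difference stayed between 0.99 and 1.26.

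For Fgf7, the keratinocyte growth factor, the answer depended on the probe set. The brightest had 26.1, 105.9 and 105.3 in JG and 215, 165 and 92.9 in MSC, which overlap, and was not called (-0.96 ± 0.52, limma adjusted p = 0.257). The other, with a mean log2 of 6.86 over the 6 arrays where the chosen one had 6.89, gave 55.3, 7.14 and 21.0 in JG and 531, 279.8 and 228 in MSC. It was called higher in MSC in the fit over all probe sets (-3.11 ± 0.51, limma adjusted p = 0.0166), but not without JG sample 3 (adjusted p = 0.0574), MSC sample 1 (0.0650), MSC sample 2 (0.0714) or MSC sample 3 (0.0576). With the mean of both probe sets, Fgf7 was called higher in MSC (-2.03, limma adjusted p = 0.00792).

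Promoters of these 2 ligands are shown because the genes belong to 1 subfamily and their called probe sets went in opposite directions. They are the 250 bases before the annotated start, 5′ to 3′ on the gene's strand, from RefSeq on GRCm38.p6, and capitals mark matches on either strand to any of 5 motifs: the TATA box (TATAAA), the GC box (GGGCGG), the AP-1 site (TGANTCA), the TEAD site (CATTCC) and the half-site of HNF1 (GTTAAT). RefSeq promoters were found for 8 of the 10 genes. Fgf7 lies on the plus strand at chr2:126034408-126034657 and Fgf10 on the plus strand at chr13:118714449-118714698.
Fgf7: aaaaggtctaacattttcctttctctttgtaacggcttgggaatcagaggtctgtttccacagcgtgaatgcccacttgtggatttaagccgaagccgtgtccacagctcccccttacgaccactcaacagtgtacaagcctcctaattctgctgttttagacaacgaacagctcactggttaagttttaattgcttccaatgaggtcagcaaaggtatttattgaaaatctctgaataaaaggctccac
Fgf10: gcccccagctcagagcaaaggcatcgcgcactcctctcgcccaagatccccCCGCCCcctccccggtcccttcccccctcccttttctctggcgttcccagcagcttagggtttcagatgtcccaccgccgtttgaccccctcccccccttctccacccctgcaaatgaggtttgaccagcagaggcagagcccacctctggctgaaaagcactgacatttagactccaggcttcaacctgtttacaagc
The window of Fgf10 was richer in G and C (61.2%) than that of Fgf7 (43.6%), with a median of 52.4% over all 32851 promoters of the table. A GC box stood 199 bases before the Fgf10 start, on the opposite strand, and 32.7% of all promoters held one. In neither window were the letters of the TATA box, AP-1, TEAD or HNF1 motifs found, which occurred in 12.4%, 6.75%, 12.6% and 6.43% of all promoters. The Fgf10 GC box was the only match in these windows, so no overlap of motifs was possible.

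Fgf9, a ligand of the IIIc receptor forms that acts on nephron progenitors in the embryo, was above MSC in every JG sample by both of its probe sets. The brighter gave 469, 21.4 and 66.1 in JG and 1.34, 2.24 and 4.12 in MSC. JG sample 1 stood well above the other JG samples, and the gene was not called (2.62 ± 0.89, limma adjusted p = 0.0994), with every MSC value under 16. The fitted size was 4.72 with a pseudocount of 1. It was called without JG sample 1 (1.58, adjusted p = 0.0315) and without JG sample 2 (3.43, adjusted p = 0.0376). The second probe set had 47.1, 61.0 and 34.4 in JG and 10.7, 11.6 and 15.9 in MSC. It was called higher in JG over all probe sets (1.13 ± 0.24, limma adjusted p = 0.0396), but not without JG sample 2 (adjusted p = 0.0622), MSC sample 1 (0.144), MSC sample 2 (0.148) or MSC sample 3 (0.125).

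Fgf2, the basic FGF often added to stromal cell cultures, was at 55.8, 18.9 and 40.8 in JG and 397, 532 and 40.6 in MSC. MSC samples 1 and 2 were high and MSC sample 3 lay within the JG range, and Fgf2 was not called (-2.16 ± 0.87, 95% interval -4.26 to -0.07, limma adjusted p = 0.147). Without MSC sample 3 the difference was -3.19 (adjusted p = 0.0154). Fgf18, a ligand known for its role in cartilage and bone, overlapped fully, with 149, 646 and 914 in JG and 312, 624 and 333 in MSC. Its difference was 0.16 ± 0.68, with a 95% interval from -1.48 to 1.79 (limma adjusted p = 0.898).

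Among the receptors, Fgfr2 was lower in JG and Fgfr4 was higher. Fgfr2, whose IIIb form receives Fgf7 and Fgf10 and whose IIIc form receives Fgf9, had 296, 91.7 and 155 in JG and 1035, 659 and 511 in MSC by its brightest probe set. The groups did not overlap and the difference was -2.01 ± 0.47 (limma adjusted p = 0.0355). This probe set is of the less specific kind (suffix s) and was only just called over all probe sets (limma adjusted p = 0.0488). A second Fgfr2 probe set gave 53.2, 37.4 and 26.7 in JG and 227, 378 and 139.6 in MSC (-2.19 ± 0.40, limma adjusted p = 0.0233 over all probe sets), and the last lay at or below 9.73 on every array. The gene's call was lost without JG sample 2 (adjusted p = 0.0587), JG sample 3 (0.0930), MSC sample 1 (0.124), MSC sample 2 (0.115) or MSC sample 3 (0.0822), and the difference stayed between -2.41 and -1.64. That of the second probe set was lost without JG sample 2 (adjusted p = 0.0546), JG sample 3 (0.0718), MSC sample 1 (0.0915) or MSC sample 2 (0.0738).

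The 3 named genes nearest to the Fgfr2 profile were Pcdhb22, Arhgap21 and Mfsd14a, at distances of 0.165, 0.200 and 0.203. Pcdhb22, a clustered protocadherin gene, was called higher in MSC with 19.6, 1.34 and 9.23 in JG and 125, 79.8 and 66.4 in MSC (-2.05 ± 0.36, limma adjusted p = 0.0139). Arhgap21 and Mfsd14a had differences of -1.88 and -2.10 and were not called (limma adjusted p = 0.0546 and 0.0564).

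Fgfr4, the receptor that in liver serves the bile acid signal of Fgf15, was at 161, 33.9 and 43.8 in the JG samples, against 2.56, 8.55 and 1.14 in the MSC samples. The groups did not overlap, and the difference was 2.03 ± 0.51 (limma adjusted p = 0.0441). With every MSC value under 16, that size moved with the pseudocount, to 0.97 at 64 and 3.92 at 1. JG sample 1 was the highest, and this was so for each of the 5 Fgfr4 probe sets. None of the 5 was called over all probe sets (limma adjusted p from 0.0605 to 0.445), although the JG values of 3 lay wholly above the MSC values. The call of Fgfr4 was lost without JG sample 3 (adjusted p = 0.0746), MSC sample 1 (0.142), MSC sample 2 (0.115) or MSC sample 3 (0.157). It was kept without JG sample 1 (1.46, adjusted p = 0.0141).

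**Figure D3:**
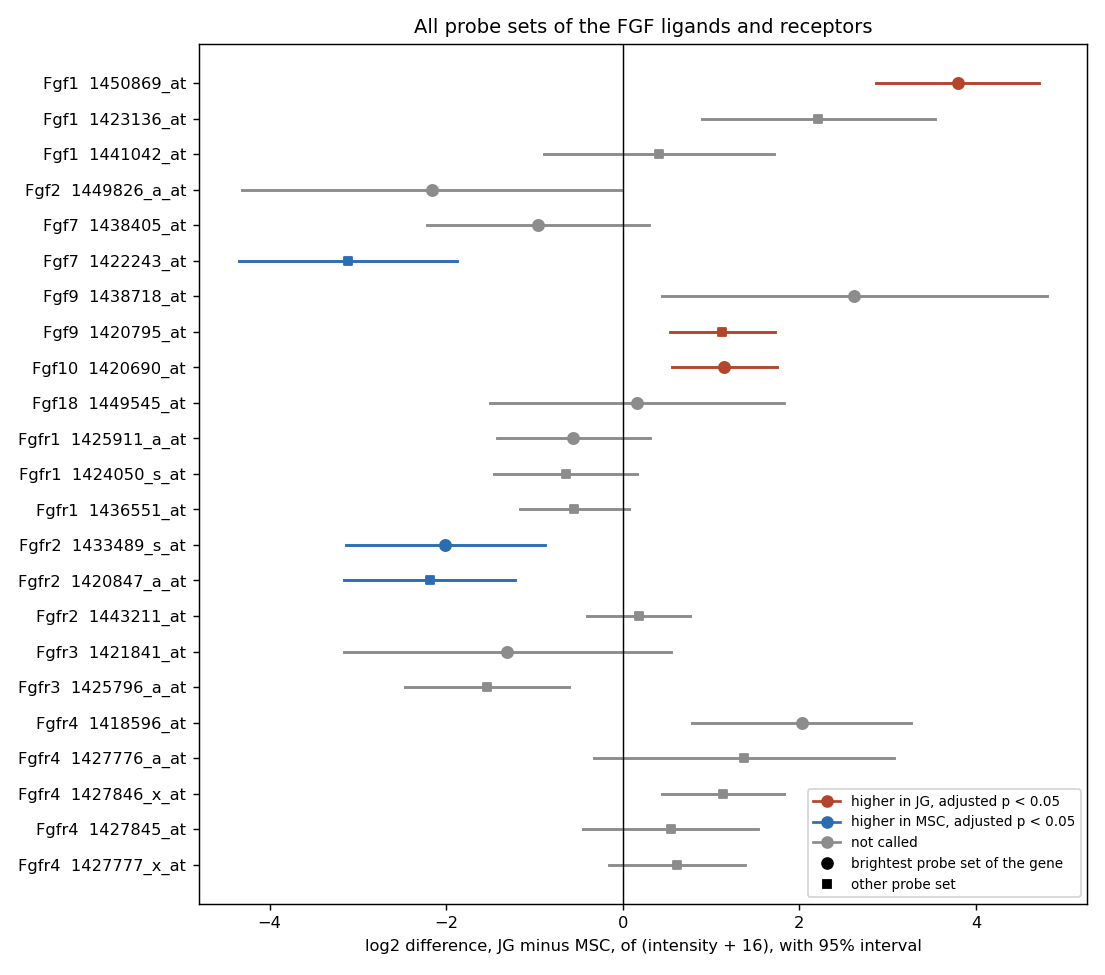
Log2 difference, JG minus MSC, of each of the 23 probe sets with its 95% interval from the fit over all 45037 probe sets. Circles are the brightest probe set of a gene and squares the others; 3 probe sets were called higher in JG (red), 3 higher in MSC (blue) and 17 were not called (grey).

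Over all probe sets, limma called 3 of the 23 higher in JG (1 each of Fgf1, Fgf9 and Fgf10) and 3 higher in MSC (1 of Fgf7 and 2 of Fgfr2). The share called among all 45037 probe sets was 9.8%, with 4.23% higher in JG and 5.57% higher in MSC. The groups did not overlap for 14 of the 23, 8 with JG higher and 6 with MSC higher, and for 34.2% of all probe sets (16.1% with JG higher and 18.1% with MSC higher). Of the 7 genes with more than 1 probe set, none had probe sets called in opposite directions.

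The promoters of Fgfr2 and Fgfr4 are shown as those of the 2 receptors called, in opposite directions, in the same format as above. Fgfr2 lies on the minus strand, with the window at chr7:130266809-130267058, and Fgfr4 on the plus strand at chr13:55152568-55152817.
Fgfr2: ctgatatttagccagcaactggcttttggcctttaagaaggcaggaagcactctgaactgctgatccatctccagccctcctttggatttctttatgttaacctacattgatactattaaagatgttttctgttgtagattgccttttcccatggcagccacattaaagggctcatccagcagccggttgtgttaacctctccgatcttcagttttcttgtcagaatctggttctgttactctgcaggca
Fgfr4: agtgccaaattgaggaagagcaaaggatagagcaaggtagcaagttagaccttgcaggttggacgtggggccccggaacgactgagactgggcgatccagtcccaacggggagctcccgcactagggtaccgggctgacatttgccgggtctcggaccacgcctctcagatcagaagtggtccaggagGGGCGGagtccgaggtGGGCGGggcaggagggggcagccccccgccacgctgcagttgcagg
The Fgfr4 window held 64% G and C and 2 GC boxes, which start 62 and 46 bases before the gene's start on the gene's strand. In the Fgfr2 window, with 44% G and C, no match to any of the 5 motifs was found.

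Fgfr1, the main receptor of mesenchymal cells, had intensities of 685, 737 and 375 in JG and 750.0, 1177 and 706 in MSC. JG sample 2 lay above MSC sample 3, and the gene was not called (-0.56 ± 0.36, 95% interval -1.43 to 0.31, limma adjusted p = 0.334). Its other 2 probe sets had all MSC values above all JG values, with differences of -0.64 and -0.55, and were not called either (limma adjusted p = 0.274 and 0.231). For Fgfr3, which restrains bone growth and is also made in kidney tubules, the values were 219, 11.7 and 53.5 in JG and 241, 138 and 157 in MSC. JG sample 1 lay within the MSC range and the other JG samples below it, and Fgfr3 was not called (-1.31 ± 0.75, limma adjusted p = 0.285). Without JG sample 1 it was called higher in MSC (-2.11, adjusted p = 0.0254). The second Fgfr3 probe set had 13.2, 5.51 and 1.18 in JG and 33.9, 88.7 and 34.6 in MSC (-1.54 ± 0.38, limma adjusted p = 0.0592).

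The JG samples differed more among themselves than the MSC samples for 9 of the 10 genes, all except Fgf2. The widest JG spread was that of Fgf9 (SD of 1.89 on the log2 scale, against 0.109 in MSC), followed by Fgfr3 (1.55 against 0.388) and Fgf18 (1.32 against 0.533). JG sample 1 had the highest of the 3 JG values for 6 genes (Fgf1, Fgf2, Fgf9, Fgfr2, Fgfr3 and Fgfr4) and the lowest for 3 (Fgf7, Fgf10 and Fgf18), and JG sample 2 had the lowest for the same 6 genes. JG sample 1 also had the highest distal tubule sum and JG sample 2 the lowest, with the proximal tubule sum lowest in JG sample 2 as well (46477, 37219 and 47181 in samples 1 to 3). Thick ascending limb, collecting duct and fibroblast marker sums followed the same order as the distal tubule sums. The leukocyte (1643, 2896 and 4048 in JG samples 1 to 3), podocyte and parietal, and smooth muscle sums ran in the order of Fgf18. The endothelial (1286, 1990 and 1562), renin cell and MSC surface sums ran in the order of Fgf7 and Fgf10, lowest in JG sample 1. Which of these goes with the FGF values was not tested.

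Many of the partners that FGFs use at the cell surface differed between the JG and MSC samples. Among 32 measured co-receptor, heparan sulphate and adhesion partner genes, JG had the higher level for 4 of those called and MSC for 12, and 16 were not called, so 50.0% were called beside 15.3% of all genes. The median difference of the list was -1.15, against 0.07 over all genes. The list was chosen with earlier results of these data known, so its share called is no test of the list. None of its measured genes lay under 16 in both groups, as did 2359 of all 18193 genes. The grouping by role within this list was made after the values were seen. Of 11 enzymes that build or edit heparan sulphate, 6 were higher in MSC (Ext1, Ndst2, Glce, Hs2st1, Hs6st2 and Sulf1) and none in JG, and 10 of the 11 differences were below 0.

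Hs6st2, which adds sulphate at the 6-O position of heparan sulphate, had 123, 12.2 and 40.2 in JG and 2548, 2283 and 2132 in MSC (-5.27 ± 0.57, limma adjusted p = 0.00218). Sulf1, the extracellular enzyme that removes 6-O sulphate, was also higher in MSC, with 1033, 703 and 693 in JG and 3754, 3380.2 and 3171 in MSC (-2.08 ± 0.26, limma adjusted p = 0.00368).

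Among 10 proteoglycan core proteins, the glypican gene Gpc3 was higher in JG and Gpc1, Gpc6, Sdc1 and Sdc3 were higher in MSC. Gpc3 was at 1966, 1309 and 1423 in JG and 13.0, 29.6 and 11.2 in MSC (5.56 ± 0.31, limma adjusted p = 0.000171). Sdc1, the syndecan typical of epithelium and plasma cells, was at 235, 128 and 135 in JG and 1392, 1816 and 1760.2 in MSC (-3.24 ± 0.30, limma adjusted p = 0.00123). For Sdc3 another of its 3 probe sets was called in the opposite direction. Of those not called, Gpc4 averaged 4493 in JG and 4062 in MSC and Sdc4 2083 in JG and 2696 in MSC, and Gpc4 had the opposite sign with the mean of its probe sets (-0.75).

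Kl, which encodes Klotho, the co-receptor for the hormone Fgf23, was at 928, 134 and 635 in JG and 9.26, 8.32 and 8.53 in MSC (4.19 ± 0.67, limma adjusted p = 0.0102), with every MSC value under 16. Both of its probe sets were called higher in JG. The order of its JG values was that of the distal tubule sums, and also that of the thick ascending limb, collecting duct and fibroblast sums. The remaining marker sums had other orders. Klotho is known to be made in distal tubule, and what part any of these cells had was not tested. Klb, the partner needed for Fgf21 signals, was not called, with at most 19.3 in JG and 8.72 in MSC. Among 6 adhesion molecules that can bind FGF receptors, L1cam and Flrt1 were higher in JG and Cdh2 and Ncam1 higher in MSC. Flrt1 averaged 2268 ± 46.8 in JG and 391 ± 80.2 in MSC, and L1cam, which in kidney marks collecting duct, 823 ± 571 in JG and 51.9 ± 29.8 in MSC. In JG samples 1 to 3 L1cam had 255, 818 and 1397, where the collecting duct sums were 6340, 3481 and 6227, a different order. Cdh2, N-cadherin, averaged 37.1 ± 12.7 in JG and 1068 ± 200 in MSC, and Ncam1 133 ± 118 in JG and 3039 ± 122 in MSC.

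Gpc3, Flrt1, Hs6st2, Ncam1, Cdh2 and Sdc1 stayed called in each fit that omitted 1 sample. Kl lost it without MSC sample 2 (adjusted p = 0.0515) or MSC sample 3 (0.0511). Gpc1 lost it without MSC sample 1 (0.0552), MSC sample 2 (0.0943) or MSC sample 3 (0.0987). Of the 6 fits, L1cam was called in that without JG sample 1 alone, with adjusted p-values from 0.0509 to 0.0797 in the others. Leaving out MSC sample 1, 2 or 3 reduced the 16 calls of the list to 10, 8 and 8. In the fit over all probe sets, every probe set of Kl, Cdh2, Gpc1, Gpc3 and Ndst2 was called in the gene's direction. For other called genes it was 5 of 7 for Ncam1, 3 of 4 for Sdc1, 2 of 3 for Sulf1 and 2 of 4 for Hs6st2 and Hs2st1. It was 1 of 2 for Flrt1, L1cam and Ext1, 1 of 3 for Glce and Sdc3, and 1 of 5 for Gpc6.

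**Figure D4:**
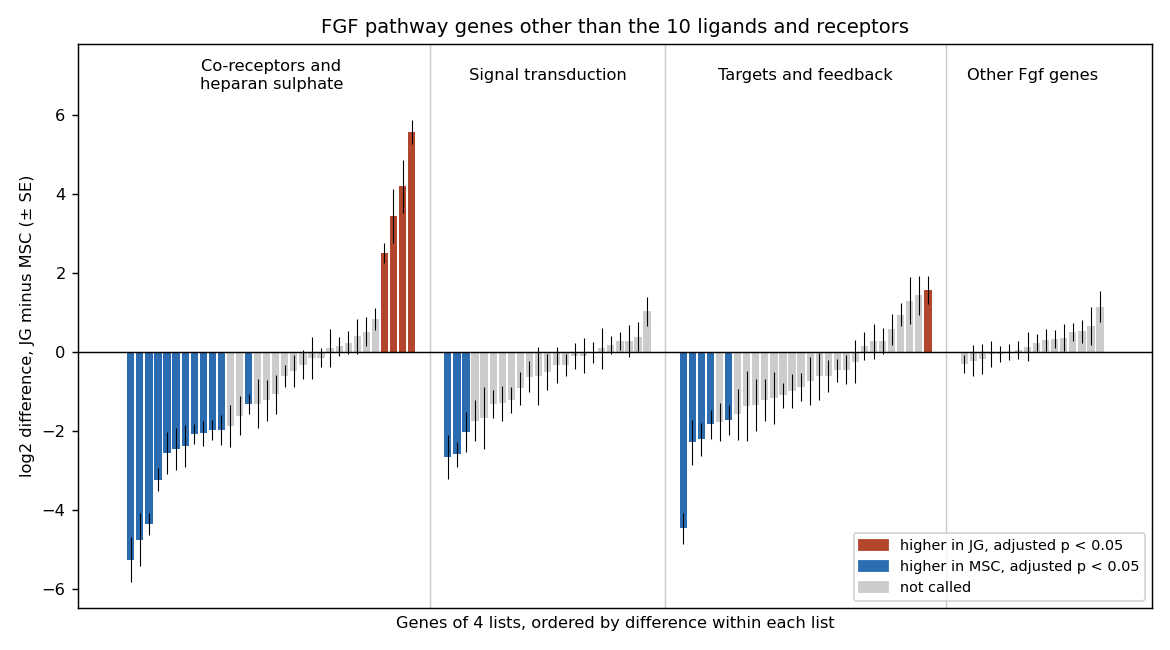
Log2 difference, JG minus MSC, of the measured genes of 4 lists of FGF pathway genes, ordered within each list, with standard errors. Red bars were called higher in JG, blue bars higher in MSC and grey bars were not called; most of the called genes stand in the co-receptor and heparan sulphate list.

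Of 23 measured genes that carry the signal inside the cell, 3 were called, all with higher values in MSC (13.0% called beside 15.3% of all genes, median -0.50). They were the adaptor gene Shc1 at 104, 72.5 and 90.6 in JG and 708, 783 and 419.6 in MSC (-2.60 ± 0.31, limma adjusted p = 0.00342), the kinase gene Akt1 (-2.66, adjusted p = 0.0242) and the ubiquitin ligase gene Cbl (-2.03, adjusted p = 0.0446). Of those not called, Nras and Ptpn11 had differences of -1.69 and -1.32 (limma adjusted p = 0.196 and 0.0582). In the fit over all probe sets, 1 of 2 Shc1, 1 of 4 Akt1 and 0 of 3 Cbl probe sets were called. Shc1 kept its call with any 1 sample left out. Akt1 lost it without MSC sample 1 (0.0569), MSC sample 2 (0.101) or MSC sample 3 (0.103), and Cbl kept it only without JG sample 1 (0.0173). Cbl was also not called after quantile normalization (0.0563) or with a pseudocount of 1 (0.0539). The 3 calls became 1 without any 1 of the MSC samples, 8 without JG sample 1 and 5 without JG sample 2. Ptpn11 was called without JG sample 1 (0.0333) or JG sample 2 (0.0387), and Nras without JG sample 1 (0.0181). Array weights also called both (0.0154 for Ptpn11 and 0.0202 for Nras), and Ptpn11 was called after quantile normalization (0.0383), with the mean of its probe sets (0.0141) and with the robust prior (0.0481).

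Among 28 measured genes known to respond to FGF signals or to damp them, MSC had the higher level for 5 and JG for 1 (21.4% called beside 15.3% of all genes, median -0.82). Spry1, the Sprouty gene that restrains receptor kinase signals in the ureteric bud, was at 23.1, 41.97 and 89.1 in JG and 264, 358 and 211 in MSC (-2.22 ± 0.42, limma adjusted p = 0.0181). It was the 1 called gene among 7 of the Sprouty and Spred families, and no MAPK phosphatase gene of 3 and no PEA3 factor gene of 2 was called. Differences were below 0 for 6 of the 7, for 3 of the 3 and for 1 of the 2. For Dusp5 and Spred3 all MSC values lay above all JG values, and the other uncalled genes of these families overlapped. Dusp6, a widely used readout of FGF and MAPK activity, overlapped, with 243, 337 and 686 in JG and 775, 1055 and 263 in MSC (-0.63, limma adjusted p = 0.521). Etv5 had 285, 246 and 189 in JG and 362, 406 and 252 in MSC (-0.47, limma adjusted p = 0.310). Dusp6 and Etv5 were singled out after their values were seen.

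The other genes of this list that were called included the chromatin gene Hmga2, at 39.1, 5.88 and 23.7 in JG and 984, 734 and 678 in MSC (-4.47 ± 0.39, limma adjusted p = 0.000973). Bmp4 (-2.30), the AP-1 gene Fosl1 (-1.84) and Gdnf (-1.73, with every JG value under 16), the ureteric bud growth factor, were also higher in MSC. The cyclin gene Ccnd1 was higher in JG, with 3050.3, 1826 and 2494 in JG and 691, 623 and 1201 in MSC (1.56 ± 0.35, limma adjusted p = 0.0312). Egr1 and Fos, immediate early genes that cell sorting can also induce, were not called (0.27 and 1.30, limma adjusted p = 0.624 and 0.190). In the fit over all probe sets, the only probe set of Bmp4 was not called, and those of Spry1 and Gdnf were. For Hmga2 3 of 4 were called, for Ccnd1 2 of 3 and for Fosl1 1 of 2. Hmga2 kept its call with any 1 sample left out. Spry1 lost it without MSC sample 1 (0.0727), MSC sample 2 (0.0824) or MSC sample 3 (0.0572), Fosl1 without MSC sample 2 (0.0881) or MSC sample 3 (0.0921), and Ccnd1 without JG sample 3 (0.0825), MSC sample 1 (0.118) or MSC sample 2 (0.122). Gdnf kept it only without JG sample 1 or MSC sample 1, with adjusted p-values from 0.0596 to 0.119 otherwise, and Bmp4 only without JG sample 3 (0.0311). With all 6 samples, Bmp4 was not called after quantile normalization (0.0581), with a pseudocount of 64 (0.0627) or with array weights (0.0647), Gdnf with a pseudocount of 64 (0.0627), and Ccnd1 with a pseudocount of 1 (0.0633). Leaving out MSC sample 1, 2 or 3 reduced the 6 calls to 4, 1 and 2, and leaving out JG sample 2 to 4.

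None of the other 16 Fgf genes of the array was called by limma, beside 15.3% of all genes, and 1 had an unadjusted p under 0.05, as did 5784 of all 18193 genes. For 4 of them (Fgf5, Fgf6, Fgf8 and Fgf23) every value in both groups lay under 16. Fgf4, an embryonic ligand, had 42.7, 133 and 103 in JG and 31.7, 37.9 and 21.3 in MSC (1.15 ± 0.40, limma adjusted p = 0.105), and was called without JG sample 1 (0.0127). Fgf11, an intracellular family member, overlapped at 24.1, 6.13 and 38.4 in JG and 19.4, 24.2 and 33.4 in MSC. The median difference of these genes was 0.18.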

How the data were processed

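Total RNA of the 6 samples was labelled with biotin from 100 ng and hybridised to single-channel Affymetrix mouse arrays, per the labels' protocols. Values deposited by the authors are linear intensities, 1 for each probe set and array; probe summary, background correction and scaling are not given in the sources used here. No detection calls were used, and the number of arrays limits the precision. Of 45037 probe sets, 34945 were paired with 1 gene, 932 with several and 9160 with none in the platform annotation; 34741 of the 34945 were found by gene identifier in RefSeq's GRCm38.p6 table and 0 symbols changed.

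Values were taken as log2 of the intensity plus 16 without normalization or filter. Each of 18193 genes was represented by the probe set with the highest mean, and JG minus MSC was fitted with limma 3.58.1 (R 4.3.3) on all 6 samples, with Benjamini-Hochberg adjustment over all genes at a threshold of 0.05; a separate fit used all probe sets. There were 4 lists of pathway genes and 11 of cell type markers. The members and lists were chosen with earlier results of these data known. Named in the text are all members, up to 5 called genes per pathway list and direction with the largest difference, the 2 brightest uncalled members of each, and the 3 nearest profiles of the most different called member in each direction; other genes were named after their values were seen. Of the markers, sums are given in place of the 2 brightest of each list. Exceptions are the leukocyte, endothelial and podocyte lists, whose 2 brightest are among the genes named. Other single markers were named after their values were seen. Alternatives were quantile normalization, median centring, filters at the 25th percentile and the median, pseudocounts of 1 and 64, a gene's mean over its probe sets, omission of the less specific probe sets (suffix s or x), a robust variance prior with trend, array weights, a block for the replicate number, and each sample left out. Figures were drawn with matplotlib 3.10.9.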

Additional observations from a re-analysis of the deposited data

How the results depend on the processing

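Only Fgf1 among the 10 genes kept its call under all 17 alternatives, with differences from 2.14 to 4.50. With all 6 samples, the 4 called FGF genes became 2 when genes under the median were left out, a filter that removes Fgf10 and Fgfr4, and 2 with the replicate number as a replicate block, where Fgf10 (adjusted p = 0.101) and Fgfr4 (0.0814) lost their call. Fgf10 also lost it with a pseudocount of 1 (0.0540) or the robust variance prior with trend (0.0763), and Fgfr4 with quantile normalization (0.0550), a pseudocount of 64 (0.128) or the mean of its probe sets (0.0983). Fgf9 was called with a pseudocount of 1 (0.0223), the mean of its probe sets (0.0354) or array weights (0.0105). The 6 called FGF probe sets became 3 with quantile normalization, 10 with array weights and 2 with the replicate block. Among the genes called over the whole table, array weights gave 6177, 9 of the transduction list and 1 (Fgf4) of the other Fgf genes, and the replicate block gave 1613 and 1 of the target and feedback list. Averaging a gene's probe sets gave 6 of the transduction list.

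With 1 sample left out, the counts ran from 1139 to 5194 for all genes, 1 to 6 for the FGF genes, 1 to 10 for their probe sets, 0 to 1 for the other Fgf genes, 8 to 20 for the co-receptor list, 1 to 8 for the transduction list and 1 to 8 for the target list. The lowest FGF count, 1, was found without JG sample 3, MSC sample 1 or MSC sample 2, and the highest, 6, without JG sample 1; these fits also have fewer residual degrees of freedom. No called difference changed sign. Of those not called, Fgf18 ran from -0.34 to 0.91, Fgf11 from -0.47 to 0.18, the dimmest Fgf1 probe set from -0.00287 to 0.89 and the dimmest Fgfr2 probe set from -6.08e-05 to 0.28 with 1 sample left out; the Fgf11 log2 JG minus MSC was 0.0839 with the mean of its probe sets and 0.18 with array weights, and Gpc4 -0.75 with the mean. The cause of these changes was not tested. With the replicate block, Akt1 (adjusted p = 0.0604), Ccnd1 (0.0618), Bmp4 (0.114), Spry1 (0.0553), Fosl1 (0.0654) and Gdnf (0.0618) also lost their call. The second Fgf9 probe set lost its call under 7 settings with all samples. With all samples the brightest Fgfr2 probe set lost its call with quantile normalization (limma adjusted p = 0.0540) or a pseudocount of 1 (0.0666) or 64 (0.0589). It also lost it with the robust variance prior (0.0528) or the replicate block (0.0599). Samples that share a number in the labels did not deviate together (correlations of -0.197, -0.009 and -0.008), so the number was not taken as a pairing.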
